A study of Mus musculus with 6 samples.

Results

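The nuclear-encoded subunits of oxidative phosphorylation were compared between MLL-AF9 leukemia cells of vehicle-treated and DS-5272-treated mice. The group holds every gene whose symbol begins with Nduf followed by a, b, c, s or v and a digit, with Uqcr, with Cox and a digit from 4 to 8, or with Atp5, together with Cyc1 and Sdha to Sdhd. These names occurred on 87 entries of the expression table, which belong to 85 genes, because Ndufs1 and Cox7a1 stood on 2 entries each and were summed. Of the 85 genes, 78 had a mean of at least 1 FPKM (fragments divided by transcript length and by the library's mapped total) over the 6 samples and were tested, among 11130 genes in all. The other 7 were Ndufa4l2, Cox7b2, Cox8b and Cox8c, which were listed at 0 in every sample, and Cox4i2, Cox6a2 and Cox6b2, which are subunit forms of particular tissues. Ndufb2 lay in an entry joined with another gene and was not analysed here. The tested genes comprise 34 of complex I, 4 of complex II, 9 of complex III, 14 of complex IV and 17 of complex V. Among the 78, 3 match by symbol only. Cox4nb, now named Emc8, encodes a part of the endoplasmic reticulum membrane complex. Atp5s encodes a coupling factor, and Atp5sl, now named Dmac2, was named as a relative of it. All 3 are counted with complexes IV and V by symbol and named apart.

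All mice were C57BL/6J and carried leukemia started by MLL-AF9, a fusion oncogene that was introduced by retrovirus into bone marrow progenitors, and the leukemia was passed serially between recipient mice. Vehicle was given to 3 mice, and DS-5272, an oral inhibitor of the p53-MDM2 interaction, to another 3 at 80 mg/kg. After 24 h the bone marrow leukemia cells were isolated and profiled by RNA-Seq. The age of the mice, and whether they carried 1 or several independently started leukemias, is not given in the sources used here.

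The 5 complexes sit in the inner mitochondrial membrane. Complexes I and II pass electrons from NADH and succinate to ubiquinone, complex III passes them on to cytochrome c and complex IV to oxygen, while complexes I, III and IV pump protons. Complex V, the ATP synthase, lets the protons return and makes ATP. The return turns a ring of c subunits, and with it a central stalk inside the still catalytic head of alpha and beta subunits. The mitochondrial genome encodes further core subunits of complexes I, III, IV and V, for which no entries were present in the table used here.

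Promoters of 65 of the 78 members had an entry in the RefSeq table of GRCm38.p6, each from 250 bases before to 50 bases after the start. They were searched on both strands for 5 short motifs that are textbook sites of regulators of respiratory genes. The core site of NRF1, GCATGCG, occurred in 11 of 65 members (16.9%), in 7.74% of the 7456 tested genes with an entry and in 4.02% of all 27025 genes with a promoter entry. The core element bound by ESRRA, AAGGTCA, occurred in 10.8% of members and 3.73% of tested genes, and the YY1 core, ATGGCGG, in 16.9% and 10.2%. The ETS core bound by GABPA, CCGGAAG, occurred in 24.6% and 21.6%, and the E-box of MYC and MAX, CACGTG, in 10.8% and 12.3%. The 250 bases before the start are shown for the only 2 members that rose, Ndufa6 and Ndufa8. They are also shown for 2 of the 8 members that fell under every alternative examined, Sdha and Atp5b. These stretches are examples and not a comparison of rising with falling members. Capitals mark matches to the motifs, all of which were NRF1 cores. In the Ndufa8 promoter a match on each strand overlaps the other, 9 and 8 bases before the RefSeq start. In the Ndufa6 promoter the match begins 83 bases before that start. GENCODE M21 places the beginning of each of these genes further upstream, at 36049406 for Ndufa8. The end of each stretch, with the Ndufa8 matches, therefore lies inside the gene as annotated there. The Sdha and Atp5b stretches hold none of the 5 motifs.
Ndufa6 (chr15:82354292-82354541, minus strand): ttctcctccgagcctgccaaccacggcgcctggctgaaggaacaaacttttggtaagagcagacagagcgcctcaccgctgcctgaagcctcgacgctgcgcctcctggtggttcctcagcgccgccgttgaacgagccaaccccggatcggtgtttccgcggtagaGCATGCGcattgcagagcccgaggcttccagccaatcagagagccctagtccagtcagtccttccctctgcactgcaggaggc
Ndufa8 (chr2:36049339-36049588, minus strand): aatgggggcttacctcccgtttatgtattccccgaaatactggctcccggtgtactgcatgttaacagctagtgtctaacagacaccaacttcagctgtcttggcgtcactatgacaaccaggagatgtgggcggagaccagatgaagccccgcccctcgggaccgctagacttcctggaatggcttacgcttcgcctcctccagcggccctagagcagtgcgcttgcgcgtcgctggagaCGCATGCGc
Sdha (chr13:74350241-74350490, minus strand): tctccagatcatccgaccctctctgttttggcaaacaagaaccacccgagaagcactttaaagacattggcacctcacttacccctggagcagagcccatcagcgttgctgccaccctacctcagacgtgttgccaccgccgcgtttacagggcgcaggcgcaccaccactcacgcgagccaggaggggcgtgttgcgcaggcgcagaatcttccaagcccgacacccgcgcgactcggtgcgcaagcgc
Atp5b (chr10:128083057-128083306, plus strand): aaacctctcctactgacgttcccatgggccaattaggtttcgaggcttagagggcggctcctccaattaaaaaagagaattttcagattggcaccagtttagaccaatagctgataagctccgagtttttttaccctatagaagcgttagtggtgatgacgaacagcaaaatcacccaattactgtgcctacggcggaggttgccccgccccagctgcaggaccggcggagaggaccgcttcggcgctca
Of the 19 members called lower that had a promoter entry, 2 (10.5%) held the NRF1 core, against 9 of the other 46 (19.6%). The ETS core (10.5% and 30.4%) and the ESRRA element (5.26% and 13.04%) were also less frequent in those called lower, the YY1 core was more frequent (21.1% and 15.2%), and the E-box was near equal (10.5% and 10.9%). These shares rest on 1 to 4 members called lower and were not tested. A match describes letters in this window and was not tested for binding.

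The estimated depth was 38000000 to 47200000 fragments in the vehicle samples and 25400000 to 35200000 in the DS-5272 samples, so that depth moved with treatment, and its part in the results was not tested. Of 7 tested genes of leukemia and myeloid identity, Ptprc, Itgam, Csf1r and Sfpi1 were higher with DS-5272 and Kit and Mpo lower, and all 7 were detected in every sample. Markers of other cells also moved with treatment. The erythroid list summed to 2.53 to 4.70 FPKM with vehicle and 12.8 to 147 FPKM with DS-5272. Of 9 bone marrow macrophage markers 3 were higher (C1qa, C1qb and C1qc) and none lower, and their sum was 948 to 1030 FPKM with vehicle and 886 to 1619 FPKM with DS-5272, mostly from Hpgd, which was high in both groups. Both lists were highest in DS-5272 replicate 1, and the counts of members without this library are given with the results. The B-cell, T-cell and NK-cell lists summed to at most 5.37 FPKM in any sample.

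With DS-5272, 24 of the 78 members were lower and 2 were higher, at an adjusted p under 0.05 in limma with Benjamini-Hochberg adjustment over all 11130 genes. That is 30.8% lower and 2.56% higher, where 22.0% of all tested genes were lower and 24.2% were higher. The median log2 fold change was −0.24 over the members and 0.04 over all tested genes. In bulk RNA a smaller share of cells of one kind and less RNA per cell cannot be told apart. The values of the 3 vehicle and 3 DS-5272 mice did not overlap for 41 members that were lower and 5 that were higher, or 52.6% and 6.41%, against 29.7% and 32.1% of all tested genes. Against the mean of the vehicle mice, the median member was lower in each DS-5272 mouse, by −0.33, −0.16 and −0.17 on the log2 scale in replicates 1, 2 and 3. It also varied among the vehicle mice, at −0.08 in replicate 1, 0.04 in replicate 2 and 0.04 in replicate 3.

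How many members passed the threshold depended on the scaling between samples. The FPKM sums ran from 445316 to 501241 in the vehicle samples and from 499229 to 661184 in the DS-5272 samples. Rescaling to a common total called 60 members lower and none higher, against 31.9% and 15.4% of all tested genes. The same rescaling moved the median of all genes from 0.04 to −0.19. Rescaling to a common upper quartile called 41 lower and 2 higher (all genes 25.2% and 22.8%), the median ratio 31 and 1 (all genes 24.2% and 23.2%), and quantile normalization 61 and none (all genes 28.3% and 21.7%). Relative to the median of all genes, the median member was at −0.28 with the FPKM as deposited, −0.30 with a common total, −0.29 with a common upper quartile, −0.29 with the median ratio and −0.42 with quantile normalization. The call counts also rested on single libraries. Without vehicle replicate 1, 2 or 3, 14, 8 and 8 members were called lower and none higher, where 15.0%, 12.5% and 13.4% of all genes were called lower, so that with only 2 vehicle mice the share of members called lower (17.9%, 10.3% and 10.3%) was close to or under that of all genes. Without DS-5272 replicate 1, 2 or 3 the members called lower were 23, 23 and 20 (all genes 21.9%, 20.2% and 19.7%), and those called higher 2, 1 and 0 (all genes 26.4%, 22.4% and 20.1%). With a block for the replicate number, 29 were lower and 5 higher (all genes 24.9% and 30.3%). Of the 26 members called, 8 passed the threshold under each of the 16 other settings: Ndufv1, Ndufa10, Ndufa5, Sdha, Cyc1, Atp5a1, Atp5b and Atp5g2.

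**Figure D1:**
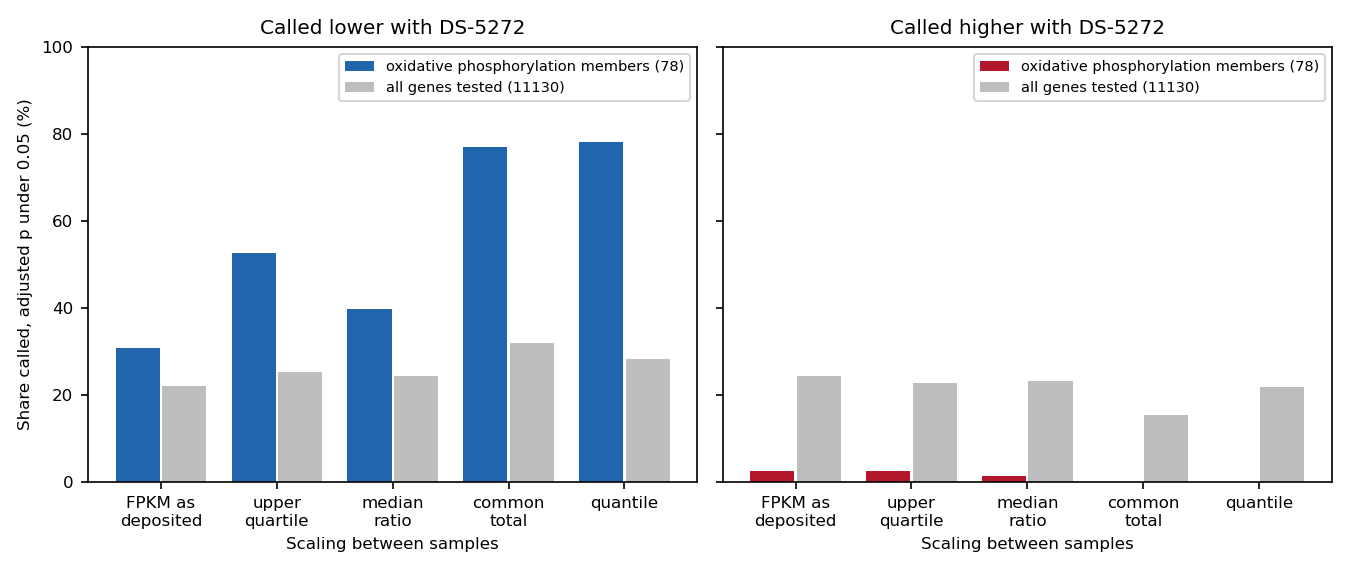
Share of the 78 members (coloured bars) and of all 11130 tested genes (grey bars) called lower (left) or higher (right) with DS-5272 at an adjusted p under 0.05, in percent, under 5 scalings between samples. The members called lower range from 30.8% with the FPKM as deposited to 78.2% with quantile normalization, and the members called higher stay at or under 2.56%.

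**Figure D2:**
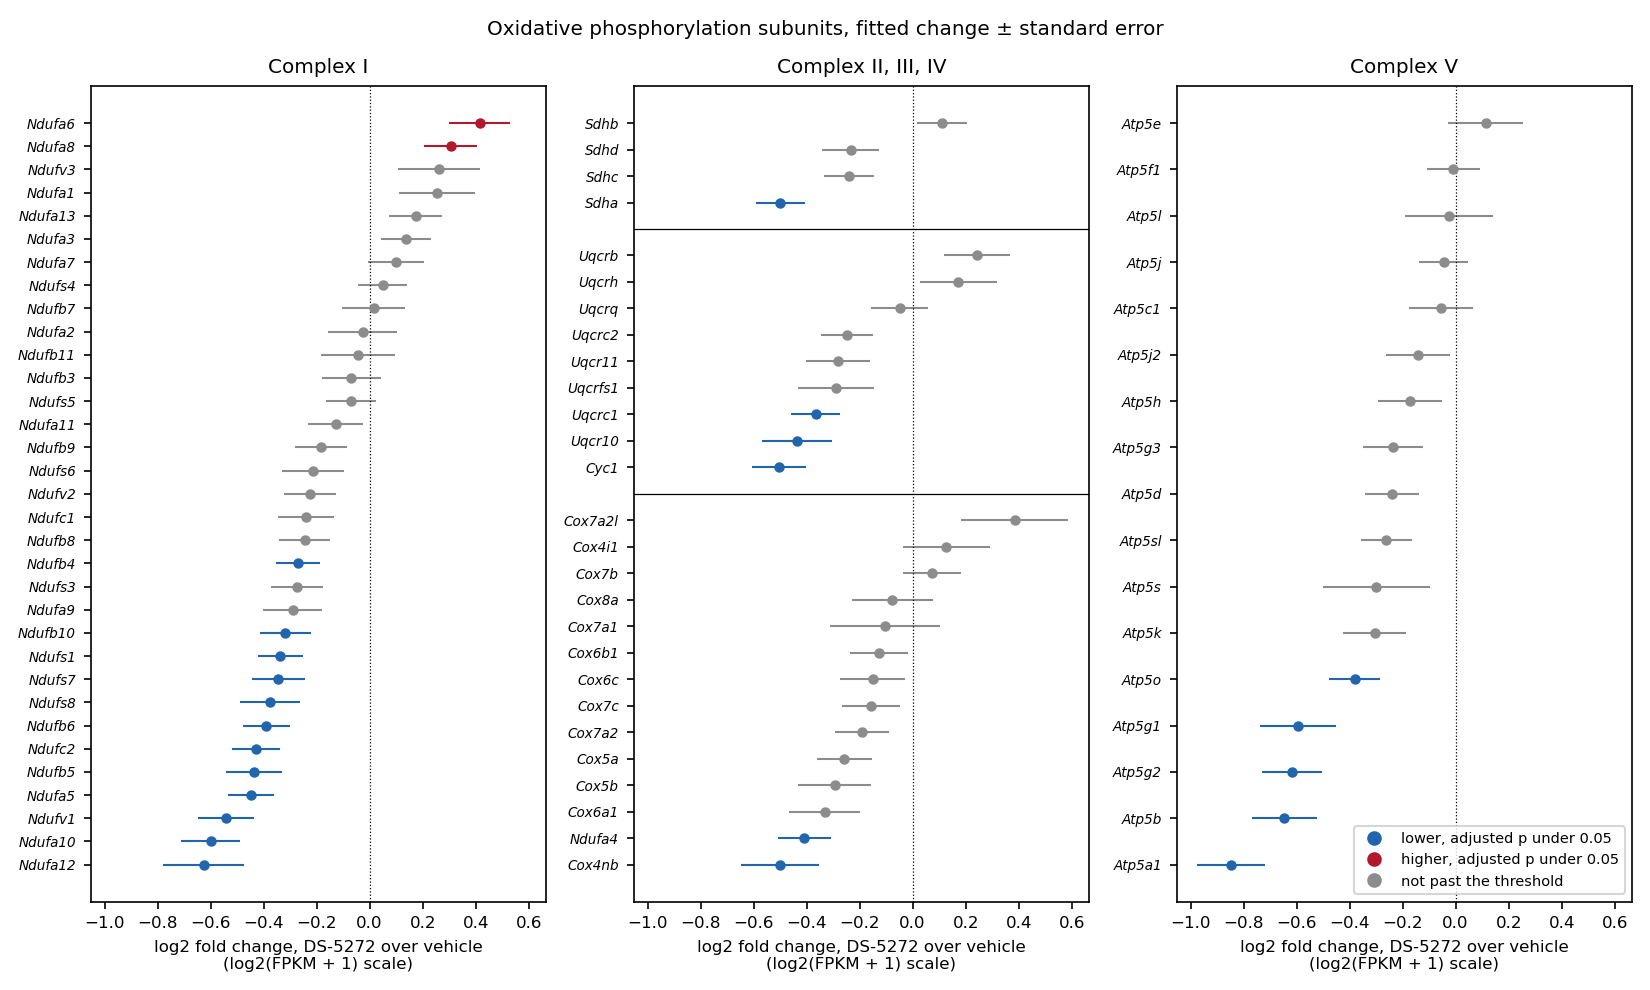
Fitted log2 fold change of 77 of the 78 members on the log2(FPKM + 1) scale (horizontal axis, points) with its standard error (bars), DS-5272 over vehicle, sorted within complexes I to V. Blue points are 23 members called lower, red points the 2 called higher and grey points those not past the threshold, and the values run from −0.85 for Atp5a1 to 0.41 for Ndufa6.

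The largest fall was in complex V. Atp5a1, the alpha subunit of the catalytic head, measured 309, 348 and 354 FPKM in the vehicle mice and 171, 214 and 177 FPKM in the DS-5272 mice. The groups were well apart, and the mean fell by 44.4% (log2 fold change −0.85 ± 0.13 SE, adjusted p = 0.0043, limma). Atp5b, the catalytic beta subunit, measured 453, 479 and 489 FPKM with vehicle and 292, 342 and 276 FPKM with DS-5272. It was the most abundant member in the vehicle group, and its mean of 473 ± 18.6 FPKM (SD, n = 3) went to 303 ± 34.2 (log2 fold change −0.65 ± 0.12 SE, adjusted p = 0.0076, limma). The other subunits of the head and central stalk did not pass the test. Atp5c1, the gamma subunit that turns within the head, had 184, 205 and 208 FPKM with vehicle and 168, 204 and 204 FPKM with DS-5272, so that the groups overlapped. Atp5d, the delta subunit of the stalk, was at a log2 fold change of −0.24 (adjusted p = 0.089, limma) with groups that did not overlap, and Atp5e, the epsilon subunit, was at 0.11 (adjusted p = 0.54, limma). Exons of Atp5a1 overlap those of Haus1 in the annotation, and its value can include fragments of that gene.

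The c-ring of complex V is encoded by a trio of genes, Atp5g1, Atp5g2 and Atp5g3, which give the same mature protein. Atp5g2 measured 191, 202 and 202 FPKM with vehicle and 117, 145 and 126 FPKM with DS-5272 (log2 fold change −0.62 ± 0.11 SE, adjusted p = 0.0069, limma). Atp5g1 was nearly constant among the vehicle mice at 90.1, 90.1 and 89.6 FPKM and lower in the DS-5272 mice at 59.4, 71.2 and 49.1 FPKM (log2 fold change −0.59 ± 0.14 SE, adjusted p = 0.016, limma). Atp5g3 measured 104, 112 and 114 FPKM with vehicle and 82.2, 102 and 96.3 FPKM with DS-5272, which did not overlap and did not pass the test (adjusted p = 0.13, limma). Its share of the summed FPKM of the trio was 27.0%, 27.7% and 28.1% in the vehicle mice and 31.8%, 32.1% and 35.4% in the DS-5272 mice. The sum itself was 385, 404 and 405 FPKM with vehicle and 258, 318 and 272 FPKM with DS-5272. Atp5g1 lost its call without vehicle replicate 2 or 3, with an adjusted p of up to 0.058. Atp5g1 and Atp5g2 have near-identical pseudogenes, at 95% identity or more over at least 200 nt, whose fragments could not be told apart.

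Of the peripheral stalk, which holds the head still, Atp5o was lower at 153, 155 and 159 FPKM with vehicle and 112, 128 and 118 FPKM with DS-5272 (log2 fold change −0.38 ± 0.10 SE, adjusted p = 0.018, limma). It lost its call without any 1 of the vehicle mice. The other 3 stalk members did not pass, with Atp5h at −0.17, Atp5j at −0.04 and Atp5f1 at −0.01 on the log2 scale. Atp5j shares exon sequence with Gabpa, a regulator described below. Exons of Atp5o overlap those of Donson and of other genes, and Atp5o has 1 near-identical pseudogene. The accessory membrane subunits, 3 of which were tested, and Atp5s and Atp5sl did not pass either. In all, 5 of the 17 complex V genes were lower and none higher, or 29.4% lower where 22.0% of all genes were lower and 24.2% higher. The count was 4, 3 and 3 without vehicle replicate 1, 2 and 3 (all genes 15.0%, 12.5% and 13.4%), and 15 with a common total (all genes 31.9%). Summed over complex V, the FPKM was 2751, 2928 and 2989 with vehicle and 2092, 2492 and 2355 with DS-5272, and the mean of the DS-5272 mice was 80.1% of that of the vehicle mice. The sums of complex II also did not overlap between the groups (84.5%), while those of complexes I (91.6%), III (96.1%) and IV (94.2%) did. As a share of all FPKM in a sample, the sums of each of the 5 complexes were lower in every DS-5272 mouse than in any vehicle mouse, at 76.4%, 70.5%, 79.8%, 78.2% and 66.6% of the vehicle mean in complexes I to V. Such a share is scaled as with a common total, which moved the median log2 fold change of all genes from 0.04 to −0.19.

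Complex I has 7 nuclear core subunits in its matrix arm, which bind the flavin and the iron-sulfur clusters. The values of all 7 were lower in each DS-5272 mouse than in any vehicle mouse, as for 29.7% of all tested genes, and 5 passed the test, where 22.0% of all genes did as lower. The largest fall of them was that of Ndufv1, which binds the flavin and receives the electrons of NADH. It measured 32.7, 36.1 and 36.4 FPKM with vehicle and 21.3, 25.5 and 24.7 FPKM with DS-5272 (log2 fold change −0.54 ± 0.11 SE, adjusted p = 0.0085, limma). Ndufs8, Ndufs7 and Ndufs1, which carry iron-sulfur clusters, fell by 0.38, 0.35 and 0.34 on the log2 scale (adjusted p = 0.032, 0.029 and 0.018, limma). Each of these 3 lost its call without any 1 of the vehicle mice. Ndufs7 further lost it without DS-5272 replicate 2 or 3, and Ndufs8 without DS-5272 replicate 1 or 3. Ndufs3 and Ndufv2 missed the threshold at −0.27 and −0.22 (adjusted p = 0.057 and 0.099, limma). Exons of Ndufs1 overlap those of Eef1b2 and Ino80dos, and exons of Ndufs3 those of Kbtbd4. Ndufs3 also has 1 near-identical pseudogene.

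The accessory subunits of complex I, which surround the core and stabilise it, moved both ways. Ndufa12, a matrix-arm subunit, measured 175, 188 and 176 FPKM with vehicle and 127, 132 and 92.6 FPKM with DS-5272, and DS-5272 replicate 3 was the lowest (log2 fold change −0.63 ± 0.15 SE, adjusted p = 0.017, limma). Ndufa10, an accessory subunit of the membrane arm, measured 89.1, 106 and 99.3 FPKM with vehicle and 58.6, 68.2 and 66.3 FPKM with DS-5272 (log2 fold change −0.60 ± 0.11 SE, adjusted p = 0.0072, limma). Ndufa5 of the matrix arm was at 68.1 ± 0.955 FPKM (SD, n = 3) with vehicle and 49.7 ± 2.49 with DS-5272 (adjusted p = 0.0083, limma). Also lower were Ndufb5, Ndufc2, Ndufb6, Ndufb10 and Ndufb4 of the membrane arm, by 0.27 to 0.44 on the log2 scale. Exons of Ndufb5 overlap those of Mrpl47, and exons of Ndufb6 those of Smim27. Ndufa12 and Ndufb4 have 1 near-identical pseudogene each. Ndufa12, Ndufb5, Ndufc2 and Ndufb6 lost their calls without vehicle replicate 2 or 3, Ndufb10 and Ndufb4 without any 1 of the vehicle mice, Ndufb10 also without DS-5272 replicate 1 or 3, and Ndufb4 without DS-5272 replicate 2.

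The 2 members that rose were both accessory subunits of complex I. Ndufa6, of the LYR family, measured 95.8, 113 and 110 FPKM with vehicle and 137, 133 and 157 FPKM with DS-5272, and its mean was 33.6% higher (log2 fold change 0.41 ± 0.12 SE, adjusted p = 0.026, limma). Ndufa8, a twin-cysteine protein of the intermembrane space side, measured 85.6, 82.9 and 83.5 FPKM with vehicle and 93.9, 109 and 110 FPKM with DS-5272 (log2 fold change 0.31 ± 0.10 SE, adjusted p = 0.044, limma). Both calls were lost without any 1 of the vehicle mice, without DS-5272 replicate 3, with a common total (log2 fold changes 0.15 and 0.04) and with quantile normalization, and that of Ndufa8 also without DS-5272 replicate 2, with the median ratio and without the mean-variance trend. Ndufa3 and Ndufa13 were higher in each DS-5272 mouse without passing the test, and both turned to below 0 with a common total and with quantile normalization. With the replicate block Ndufa9 passed lower and Ndufv3 higher (adjusted p = 0.044 and 0.045, limma). In all, 13 of 34 complex I members were lower (38.2%) and 2 higher (5.88%), where 22.0% and 24.2% of all genes were. The members called lower were 8, 3 and 3 without vehicle replicate 1, 2 and 3 (all genes 15.0%, 12.5% and 13.4%), and 25 with a common total (all genes 31.9%).

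**Figure D3:**
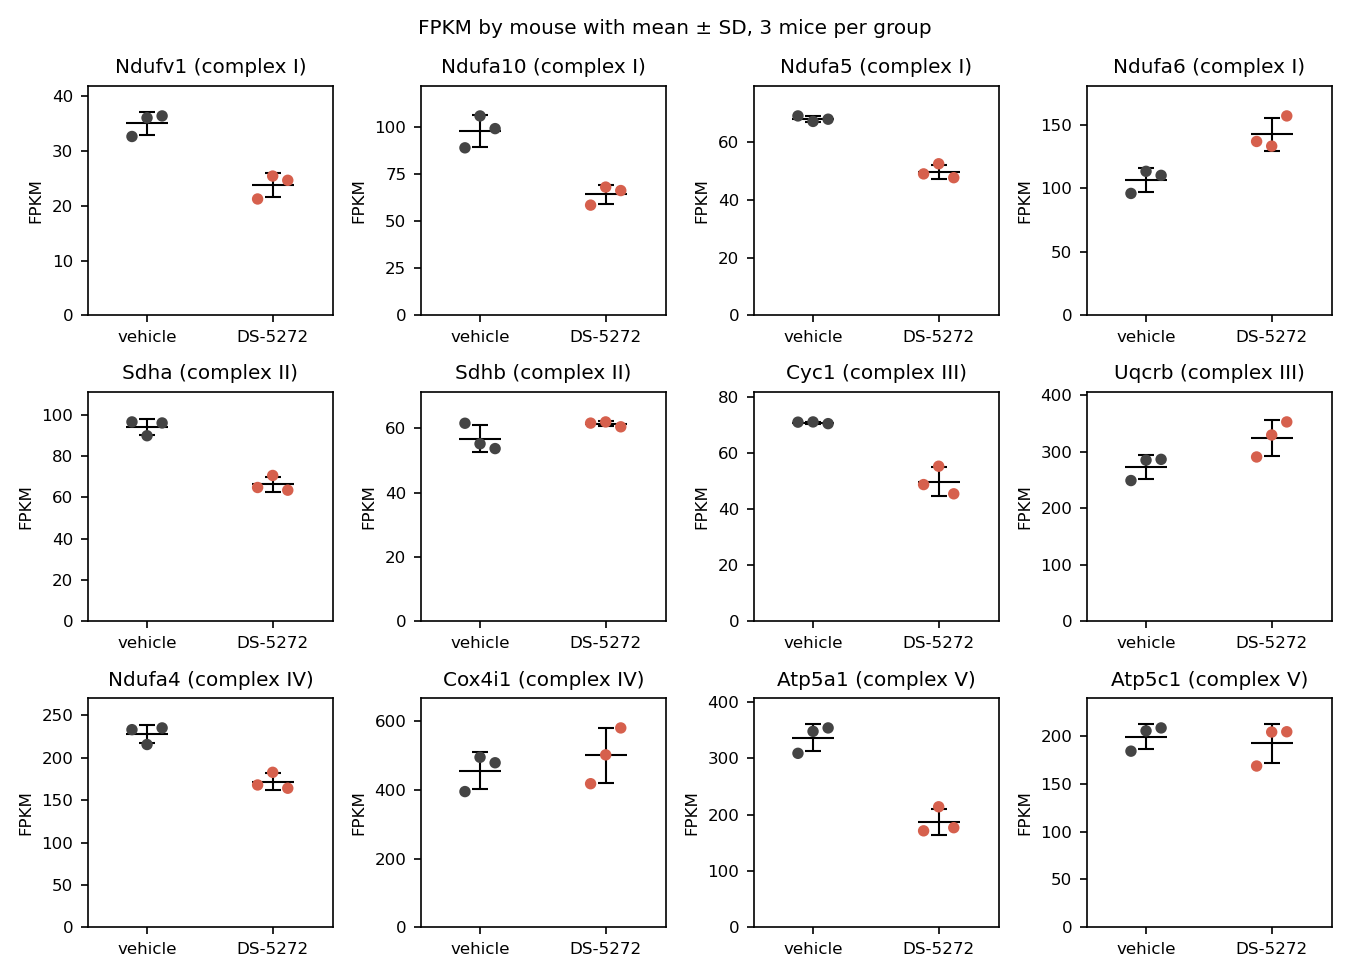
FPKM (vertical axes, from 0) of 12 members in each of the 3 vehicle mice (dark points) and 3 DS-5272 mice (red points), with the mean and SD as black bars. Ndufv1, Ndufa10, Ndufa5, Sdha, Cyc1, Ndufa4 and Atp5a1 are lower in every DS-5272 mouse than in any vehicle mouse, Ndufa6 and Uqcrb are higher, and Sdhb, Cox4i1 and Atp5c1 overlap.

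Complex II is succinate dehydrogenase, the only complex shared with the TCA cycle. Sdha, the flavoprotein that oxidises succinate, measured 96.4, 89.8 and 95.9 FPKM with vehicle and 64.7, 70.5 and 63.4 FPKM with DS-5272. The groups were apart by more than the spread within either (log2 fold change −0.50 ± 0.09 SE, adjusted p = 0.0072, limma). Sdhb, the iron-sulfur partner that takes the electrons from Sdha, measured 61.6, 55.2 and 53.7 FPKM with vehicle and 61.7, 62.0 and 60.5 FPKM with DS-5272, with overlapping groups (log2 fold change 0.11 ± 0.09 SE, adjusted p = 0.35, limma). The membrane anchors Sdhc and Sdhd were lower in each DS-5272 mouse and did not pass the test (−0.24 and −0.23 on the log2 scale, adjusted p = 0.076 and 0.12, limma). Thus 1 of 4 members was lower (25%, all genes 22.0%), and 3 of 4 with a common total (all genes 31.9%), where Sdhb was at −0.15.

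In complex III, 3 of 9 members were lower and none higher, or 33.3% lower where 22.0% of all genes were lower and 24.2% higher. With the replicate block 5 were lower and 1 higher (all genes 24.9% and 30.3%), and with a common total 7 and none (all genes 31.9% and 15.4%). Without any 1 of the vehicle mice 1 was lower and none higher (all genes 12.5% to 15.0% lower). Cyc1, cytochrome c1, hands electrons to cytochrome c. It was nearly constant among the vehicle mice at 71.2, 71.3 and 70.6 FPKM and measured 48.9, 55.4 and 45.6 FPKM with DS-5272 (log2 fold change −0.50 ± 0.10 SE, adjusted p = 0.0094, limma). Uqcr10, a small accessory subunit, measured 90.2, 92.4 and 95.7 FPKM with vehicle and 57.7, 79.7 and 69.3 FPKM with DS-5272 (log2 fold change −0.44 ± 0.13 SE, adjusted p = 0.034, limma). Uqcrc1, a core protein of the matrix side, measured 110, 111 and 113 FPKM with vehicle and 80.9, 91.8 and 85.9 FPKM with DS-5272 (log2 fold change −0.37 ± 0.09 SE, adjusted p = 0.019, limma). Both lost their calls without any 1 of the vehicle mice, and Uqcr10 also without DS-5272 replicate 1 or 3. Uqcrfs1, the Rieske iron-sulfur protein, was at −0.29 with groups that overlapped, and Uqcrc2, the partner of Uqcrc1, was at −0.25 (adjusted p = 0.14 and 0.079, limma). Uqcrb, a subunit next to the ubiquinone site, was higher in each DS-5272 mouse at 291, 330 and 353 FPKM against 249, 285 and 287 FPKM (log2 fold change 0.24 ± 0.12 SE, adjusted p = 0.14, limma). With the replicate block Uqcrfs1 and Uqcr11 passed lower and Uqcrb higher (adjusted p = 0.036, 0.032 and 0.040, limma). Uqcrb has 3 near-identical pseudogenes.

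In complex IV, cytochrome c oxidase, 2 of 14 members were lower (14.3%, all genes 22.0%) and none higher, and 1 of the 2, Cox4nb, is no subunit. With quantile normalization 11 of the 14 were lower (all genes 28.3%). Ndufa4, first assigned to complex I and counted here with complex IV, measured 233, 216 and 235 FPKM with vehicle and 168, 183 and 164 FPKM with DS-5272 (log2 fold change −0.41 ± 0.10 SE, adjusted p = 0.017, limma). Its call was lost without any 1 of the vehicle mice. Its relative Ndufa4l2 was listed at 0 in all samples. Cox4nb measured 6.31, 5.30 and 5.03 FPKM with vehicle and 4.13, 3.85 and 2.94 FPKM with DS-5272 (log2 fold change −0.50 ± 0.15 SE, adjusted p = 0.030, limma). Its exons overlap those of Cox4i1, and it lost its call without any 1 of the vehicle mice, without DS-5272 replicate 2 or 3, and without the filter on low values. No complex IV member was called lower without vehicle replicate 1, 2 or 3 (all genes 15.0%, 12.5% and 13.4%). With a common total 10 were lower (all genes 31.9%). With the replicate block 4 were lower and 1 higher (all genes 24.9% and 30.3%).

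Several subunits of complex IV have forms made in different tissues. Cox4i1, the broad form of the subunit that binds ATP, measured 395, 495 and 479 FPKM with vehicle and 418, 502 and 580 FPKM with DS-5272, with overlapping groups (log2 fold change 0.13 ± 0.16 SE, adjusted p = 0.55, limma). Its lung form Cox4i2 was under the limit for testing, at 1.42, 1.34 and 0.762 FPKM with vehicle and 0.401, 0.231 and 0.278 FPKM with DS-5272. Cox6a1 measured 230, 263 and 282 FPKM with vehicle and 182, 230 and 205 FPKM with DS-5272 (log2 fold change −0.33 ± 0.13 SE, adjusted p = 0.082, limma), and its heart and muscle form Cox6a2 was at 0 in 4 of the 6 samples. Cox6a1 and Cox5b passed lower with the replicate block (adjusted p = 0.024 and 0.020, limma). Of the Cox7a genes, the muscle form Cox7a1 was at 2.31 ± 0.259 FPKM (SD, n = 3) with vehicle and 2.15 ± 0.852 with DS-5272. The broad form Cox7a2 was at 55.4 ± 4.59 and 48.4 ± 2.64 FPKM (log2 fold change −0.19 ± 0.10 SE, adjusted p = 0.16, limma). Cox7a2l, a relative of both forms, measured 143, 182 and 180 FPKM with vehicle and 177, 205 and 289 FPKM with DS-5272 (log2 fold change 0.38 ± 0.20 SE, adjusted p = 0.16, limma). It passed with the replicate block (adjusted p = 0.038, limma). The groups overlapped, and DS-5272 replicate 3 was the highest.

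A ratio of 2 members within a sample does not depend on a scaling that multiplies the whole sample by a single factor. Quantile normalization is not of that kind. The 11 pairs given here were chosen after their values were seen, so they are a description with no test. Each ratio was lower in every DS-5272 mouse than in any vehicle mouse. Atp5a1 to Atp5c1 was nearly constant among the vehicle mice at 1.68, 1.70 and 1.70 and was 1.02, 1.05 and 0.867 in the DS-5272 mice. Sdha to Sdhb was 1.56, 1.62 and 1.78 with vehicle and 1.05, 1.14 and 1.05 with DS-5272. Both pairs are partners within one enzyme whose proteins are assembled at fixed numbers. Cyc1 to Uqcrb was 0.286, 0.250 and 0.246 with vehicle and 0.168, 0.168 and 0.129 with DS-5272. Ndufv1 to Ndufa6 was 0.341, 0.319 and 0.331 with vehicle and 0.156, 0.191 and 0.157 with DS-5272. These pairs join a member called lower with one not called lower with the FPKM as deposited. Of the latter, Atp5c1 passed lower with a common total (log2 fold change −0.32, adjusted p = 0.019, limma). The DS-5272 means of these ratios were 57.8% (Atp5a1), 65.0% (Sdha), 59.5% (Cyc1) and 50.9% (Ndufv1) of the vehicle means. Between Atp5a1 and Atp5b, which both fell, the DS-5272 mean was 86.9% of that with vehicle.

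**Figure D4:**
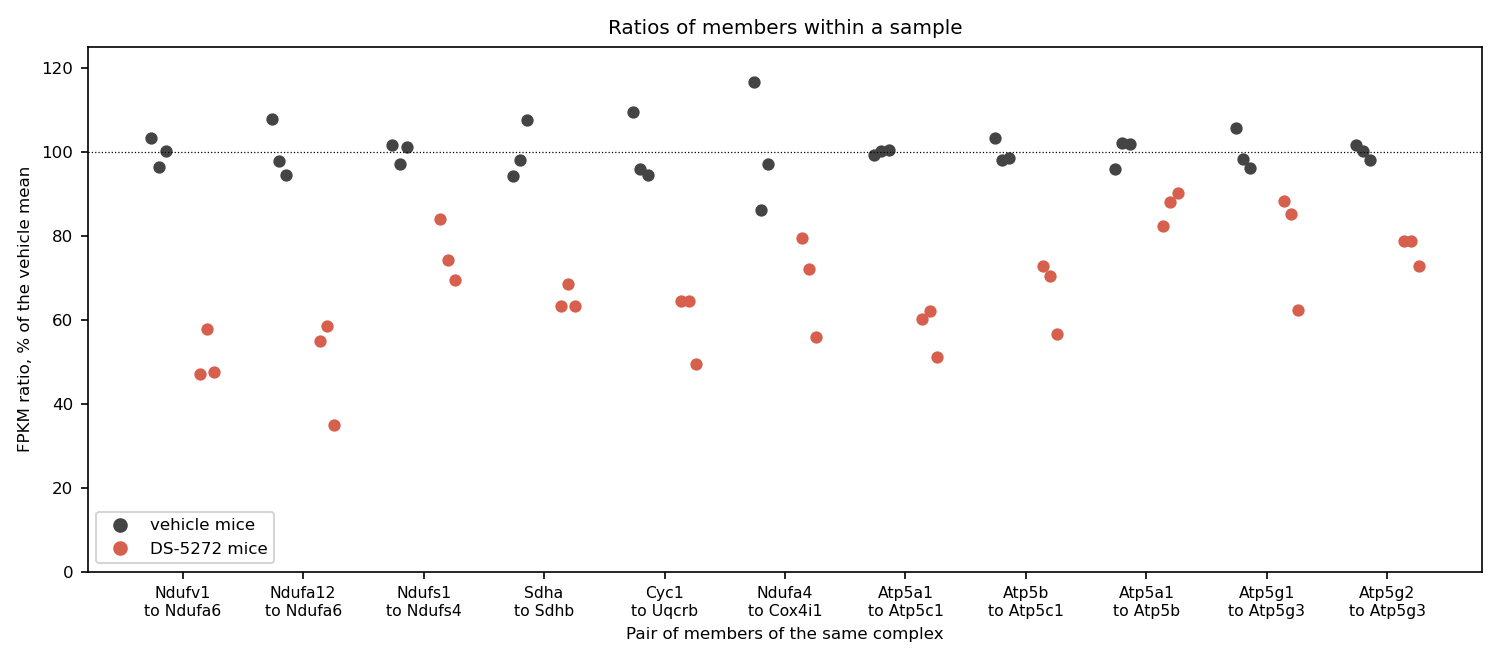
Ratio of the FPKM of 2 members of one complex within each sample, as percent of the mean of the vehicle mice (vertical axis), for 11 pairs, with vehicle mice as dark and DS-5272 mice as red points. The DS-5272 mice lie under the vehicle mice in each pair, from a mean of 49.5% for Ndufa12 to Ndufa6 up to 86.9% for Atp5a1 to Atp5b.

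Other genes of the pathway were taken from 10 lists with 115 genes, of which 94 had an unjoined entry and a mean of at least 1 FPKM. With DS-5272, 41 of them were lower and 5 higher, where 22.0% and 24.2% of all genes were. The median of the 94 was −0.29. The counts lower were 24, 25 and 26 without vehicle replicate 1, 2 and 3 (all genes 15.0%, 12.5% and 13.4%), and 58 with a common total (all genes 31.9%). The 13 mitochondrially encoded subunits form 1 of these lists and had no entry. Of the 115, 22 were found under an older symbol and 5 lay in joined entries.

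The regulators that bind respiratory promoters moved in both directions. Nrf1 measured 21.1, 20.5 and 21.7 FPKM with vehicle and 12.0, 16.9 and 15.8 FPKM with DS-5272 (log2 fold change −0.49 ± 0.14 SE, adjusted p = 0.026, limma). The subunits of the GA-binding protein, which binds the ETS core, were lower: Gabpa by 0.34, Gabpb1 by 0.47 and Gabpb2 by 0.64 on the log2 scale (adjusted p = 0.023, 0.044 and 0.0043, limma). Nrf1 and Gabpa lost their calls without any 1 of the vehicle mice, and Gabpb1 without vehicle replicate 1 or 2, without DS-5272 replicate 2 or 3 and without the filter on low values. Esrra, a nuclear receptor of energy metabolism, was higher at 22.3, 21.4 and 27.3 FPKM against 13.3, 13.2 and 13.6 FPKM (log2 fold change 0.78 ± 0.12 SE, adjusted p = 0.0040, limma). Yy1 was at −0.06 (adjusted p = 0.62, limma). Pprc1, a coactivator, measured 16.6, 13.3 and 12.9 FPKM with vehicle and 11.5, 10.2 and 4.04 FPKM with DS-5272, and passed with the replicate block (adjusted p = 0.10 without and 0.032 with it, limma). The coactivators Ppargc1a and Ppargc1b were under 1 FPKM.

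For the transcription and copying of mitochondrial DNA, 7 of 12 genes were lower and none higher, or 58.3% where 22.0% of all genes were lower (6 with the replicate block, under which Ssbp1 missed the threshold at an adjusted p of 0.053, limma). Peo1, the helicase also named Twnk, fell by 0.79 and Lrpprc, which stabilises mitochondrial messenger RNA, by 0.76 on the log2 scale (adjusted p = 0.0046 and 0.013, limma). Tfam, which packs mitochondrial DNA and takes part in its transcription, was picked after its values were seen. It measured 7.49, 7.29 and 7.65 FPKM with vehicle and 4.94, 4.58 and 3.76 FPKM with DS-5272 (adjusted p = 0.0070, limma).

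The largest change among the 94 was in the making of ubiquinone. Coq7, a hydroxylase of that route, measured 26.7, 28.2 and 26.4 FPKM with vehicle and 8.39, 11.3 and 7.63 FPKM with DS-5272 (log2 fold change −1.49 ± 0.15 SE, adjusted p = 0.0014, limma), a deeper fall than that of any member. Pdss1, which makes the side chain, fell by 0.97 (adjusted p = 0.0078, limma). Of 15 electron carriers and ubiquinone-linked enzymes 9 were lower (60%, all genes 22.0%), and 1 was higher, the sulfide oxidase Sqrdl (log2 fold change 0.93 ± 0.27 SE, adjusted p = 0.027, limma). Sqrdl lost its call without any 1 of the vehicle mice, without DS-5272 replicate 2 or 3 and without the filter on low values. Of 16 enzymes of pyruvate dehydrogenase and the TCA cycle 6 were lower and none higher (37.5% lower, all genes 22.0%), and 12 were lower with a common total (all genes 31.9%). Suclg2 was at −1.13 and Idh3a at −0.98 (adjusted p = 0.0034 and 0.012, limma).

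Of 44 assembly factors tested, 15 were lower and 3 higher, or 34.1% and 6.82%, where 22.0% and 24.2% of all genes were. For complex V, both factors that build the catalytic head, Atpaf1 and Atpaf2, were lower, by 0.66 and 0.74 on the log2 scale (adjusted p = 0.0066 and 0.0052, limma). For complex IV, 7 of 18 were lower (38.9%) and 2 higher, or 3 higher with the replicate block. Cox10, which makes heme for complex IV, fell by 0.71 and 2010305A19Rik, now Coa7, by 0.62 (adjusted p = 0.0076 and 0.013, limma), while Cox17, a copper carrier, and 2900053A13Rik, now Pet100, rose by 0.34 and 0.45 (adjusted p = 0.034 and 0.042, limma). For complex I, 3 of 13 were lower (23.1%), close to the share of all genes, and 5 with the replicate block, where Ndufaf4 and 1810043H04Rik, now Ndufaf8, passed too (adjusted p = 0.029 and 0.041, limma). The largest falls were those of 2310030N02Rik, now Ndufaf6, by 0.78 and Ndufaf2 by 0.72 (adjusted p = 0.0097 and 0.020, limma). For complex II, Acn9, now Sdhaf3, and Sdhaf1, which serve the iron-sulfur subunit, fell by 0.58 and 0.35 (adjusted p = 0.0096 and 0.025, limma), and Sdhaf2, which adds the flavin to Sdha, rose by 0.37 (adjusted p = 0.049, limma, and 0.059 with the replicate block). For complex III, 1 of 5 was lower (20%), near the share of all genes, Uqcc, now Uqcc1, which helps to make cytochrome b (log2 fold change −0.40 ± 0.11 SE, adjusted p = 0.026, limma). The rises of Sdhaf2, Cox17 and 2900053A13Rik did not pass with a common total or without any 1 of the vehicle mice, nor did Cox17 without DS-5272 replicate 1 and the other two without DS-5272 replicate 2 or 3. Sdhaf2 and 2900053A13Rik also missed without the filter on low values, Sdhaf2 and Cox17 with a common upper quartile and with the median ratio, Cox17 with quantile normalization and Sdhaf2 without the mean-variance trend. In all, Sdhaf2 was lost in 11, Cox17 in 8 and 2900053A13Rik in 7 of the 16 other settings. The falls of Sdhaf1 and Uqcc were lost without any 1 of the vehicle mice and without DS-5272 replicate 1, that of Sdhaf1 also without DS-5272 replicate 2, that of Uqcc without DS-5272 replicate 3, that of Ndufaf2 without vehicle replicate 1 or 2 and that of 2010305A19Rik without vehicle replicate 3.

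**Figure D5:**
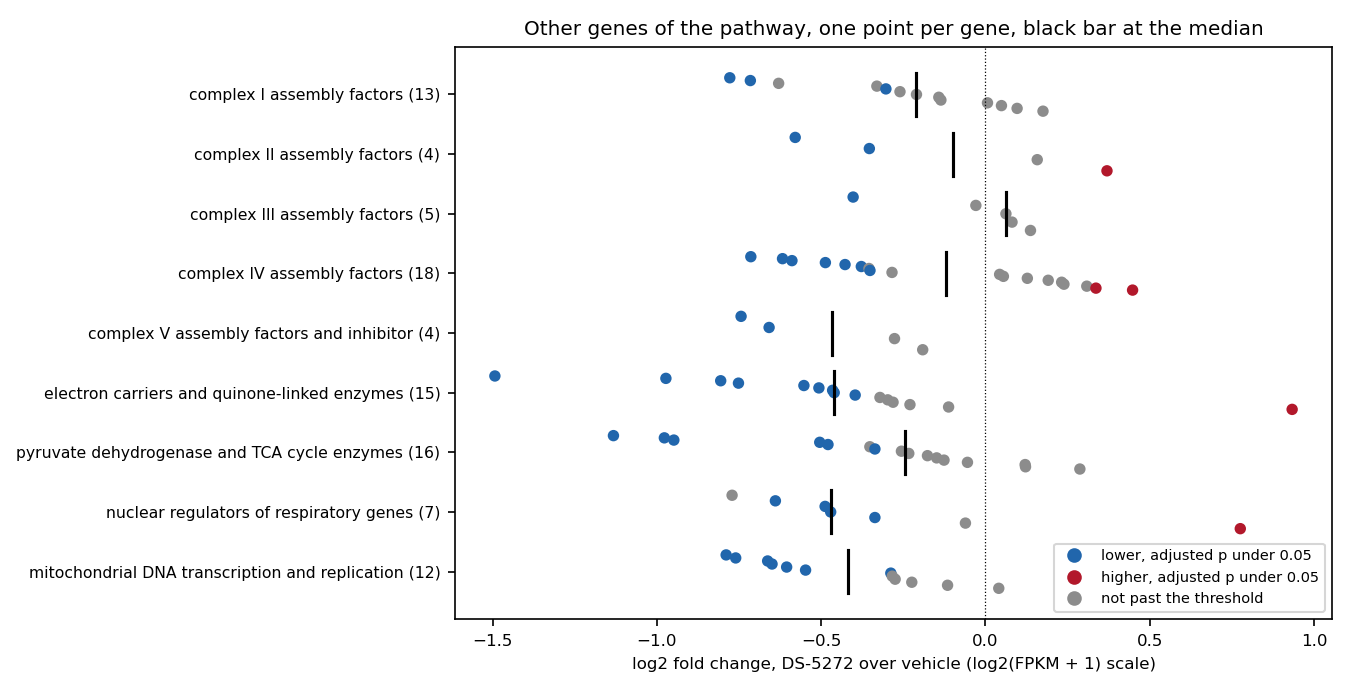
Fitted log2 fold change (horizontal axis, log2(FPKM + 1) scale) of the 94 tested genes in 9 lists of assembly factors, electron carriers, TCA cycle enzymes, regulators and mitochondrial DNA genes, with 1 point per gene, the number tested in brackets and the median as a black bar. Blue points are lower and red points higher at an adjusted p under 0.05, and the electron carriers and ubiquinone-linked enzymes span −1.49 for Coq7 to 0.93 for Sqrdl.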

How the data were processed

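RNA-Seq was carried out on leukemia cells of 6 mice, 3 per group. Per the labels and the methods of the study, the libraries kept the strand and were read as pairs, and the authors removed adapters with cutadapt 1.8.1 and derived FPKM values per gene against GRCm38 reference transcripts with TopHat2 2.1.1 and Cufflinks 2.2.1. The deposited table used here holds FPKM only, so no count model was used and no counting intervals are given. All value columns belonged to the 6 samples.

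Entries sharing a symbol were summed. Those averaging 1 FPKM or more were compared on log2(FPKM + 1) with limma 3.58.1 in R 4.3.3 (mean-variance trend, two-sided), adjusted by the Benjamini-Hochberg method over all 11130 genes, with a threshold of 0.05. Fold changes on this scale understate the change of low genes. The fit was run on simulated data whose changes were larger than those of the members, so calls at the sizes seen in the members were not tested there. For 1 gene, 3 mice against 3 allow an exact permutation p of 0.1 at the lowest. p-values measure the spread between these mice. Python 3.11.15, pandas 2.3.3, numpy 2.4.6, matplotlib 3.10.9 and blastn 2.17.0 served for the summaries, figures and the search for near-identical pseudogenes.

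Replicate numbers run from 1 to 3 in both groups. After subtracting group means, same-numbered samples correlated over all genes at 0.66, 0.21 and 0.43, and the others at −0.58 to 0.34. No label says what the number stands for. Vehicle replicate 2 correlated more with DS-5272 replicate 3 (0.34) than with DS-5272 replicate 2 (0.21), so a pairing of the mice is not established. Since all 3 same-numbered pairs exceeded 0.1, a block for the number was fitted as an alternative, and the calls reported are those without it. Blocked values are printed where they change the call of a named gene or move a count of calls over 1.5 times. Depth was estimated from the smallest FPKM steps of single-transcript genes over 1500 nt.

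The members and lists were chosen with earlier results of these data known. Some results for single genes are not reported here. Named in full were, per complex, the 3 largest changes past the threshold in each direction and the sets of related forms, and from each list the 2 largest falls and rises and every tested regulator. Of the members, 27 have exons that overlap another gene in GENCODE M21 and 18 have a near-identical pseudogene. Whether strand was used in counting is not stated, so such values can hold fragments of both genes.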

Additional observations from a re-analysis of the deposited data

How the results depend on the processing

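Members called lower numbered 24 as reported, and 41 with a common upper quartile, 60 with a common total, 61 with quantile normalization and 13 of the 41 members without exon overlap or a near-identical pseudogene, a setting added after seeing the data. Without 1 mouse at a time they numbered 8 to 23. Members called higher numbered 2 as reported, 0 with a common total or quantile normalization, 1 with the median ratio or without the mean-variance trend, 5 with the replicate block and 0 to 2 without 1 mouse at a time. The counts called lower in complexes I, II, III, IV and V were 13, 1, 3, 2 and 5 as reported, 25, 3, 7, 10 and 15 with a common total, and 25, 2, 8, 11 and 15 with quantile normalization. With a common upper quartile complexes II, III, IV and V had 3, 6, 5 and 9, and with the median ratio complex II had 2. With the replicate block complex III had 5 and complex IV had 4, complex I went from 13 lower and 2 higher to 14 and 3, complex I assembly factors from 3 lower to 5, and the block left the counts of complexes II and V at 1 and 5. Complex IV had 1 with a mean of at least 5 FPKM or with Ndufa4 counted in complex I. Without 1 mouse at a time the counts ranged from 3 to 12 in complex I, 1 to 1 in II, 1 to 3 in III, 0 to 2 in IV and 3 to 6 in V, from 24 to 41 for the other genes of the pathway, from 1389 to 2432 for all genes lower and from 1623 to 2934 for all genes higher. All genes called higher numbered 1713 with a common total.

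The 26 members called kept their direction under each other setting in which they were tested, 16 in all, except that Cox4nb was under the stricter filter on low values and so had 15. Of the 52 members not called, the log2 fold change turned from above to below 0 for 13 with a common total and for 13 with quantile normalization. Those among them given with values in the text, or named there as turning, did so under both: Atp5e (−0.15 and −0.19), Sdhb (−0.15 and −0.082), Uqcrb (−0.023 and −0.15), Cox4i1 (−0.14 and −0.30), Ndufv3 (−0.0017 and −0.038), Ndufa3 (−0.13 and −0.17) and Ndufa13 (−0.089 and −0.020). Of these, Cox4i1 with quantile normalization was past the threshold. Of members named in the text, without 1 mouse at a time it ranged from −0.11 to 0.037 for Atp5c1 (above 0 without DS-5272 replicate 1), from −0.043 to 0.053 for Atp5f1 (above 0 without vehicle replicate 3 or DS-5272 replicate 1) and from −0.31 to 0.071 for Cox7a1 (above 0 without DS-5272 replicate 3). The causes were not tested. Depth was estimated from the FPKM only, so the counting error of single members is not known.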

Other observations

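Across the 78 members, the log2 fold change with DS-5272 ran against the length of the longest-coding transcript (Spearman's rho −0.35, Pearson's r −0.39) and not with the mean FPKM of the vehicle mice (0.14 and 0.02). These correlations are across genes of the same 6 libraries, which are not independent replicates, and are given as a description. In bins of up to 600, 1000, 2000 and 10000 nt, the members had medians of −0.08, −0.21, −0.24 and −0.50, the last from 7 members. Tested genes of known length, binned by their longest protein-coding transcript, had medians of 0.006, −0.07, −0.03 and 0.07. By the estimated depths, 27 of the 78 members held under 1000 fragments in the sample where they were lowest, and Cox7a1 held the fewest, at about 10.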
